A study of Homo sapiens with 6 samples.

Results

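The genes described here are 5 RAS family GTPases (HRAS, NRAS, MRAS, RRAS and RRAS2) and the 4 RASGRP exchange factors (RASGRP1, RASGRP2, RASGRP3 and RASGRP4), 9 of the 61661 identifiers of a count table from K562 cells. They were chosen by gene family, and MRAS and RASGRP2 are named in that choice because their counts moved in opposite directions in the 2 knockdowns. The values of MRAS and RASGRP2 are therefore given as a description, without a test, and tests are given for the 7 other genes. K562 is an established human line of chronic myeloid leukemia in blast crisis, labelled as derived from a pleural effusion. Poly(A) RNA was sequenced from 3 groups of K562 cells, with 2 libraries each: shCTR, which carry a nonsense hairpin, shMETTL3 and shMETTL14, which carry a hairpin against METTL3 or METTL14. The shCTR and shMETTL3 cells were stable lines made with a U6-GFP-puromycin lentivirus and selected with puromycin, so the controls also carry the vector. METTL3 was targeted by 1 hairpin, and the vector used for METTL14 is not given in the sources used here. The sources do not say whether the libraries of a group came from separate cultures, so each p-value measures only the spread between these libraries, which may be technical.

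RAS proteins are small GTPases that carry signals from receptors at the membrane to the RAF, PI3 kinase and RALGDS effectors. They are active when bound to GTP. Exchange factors load them with GTP, and GTPase-activating proteins switch them off. The RASGRP proteins are exchange factors of blood cells that are recruited to membranes by diacylglycerol, or, in the case of RASGRP2, respond mainly to calcium and act on RAP1. METTL3 is the catalytic subunit and METTL14 the RNA-binding partner of the complex that writes N6-methyladenosine (m6A) into mRNA, mostly at sites of the type GGACT and often close to the end of the coding sequence.

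Because both knockdowns hit the m6A writer, the GGACT letters of the 9 mRNAs are shown first. For each gene the GGACT nearest to the end of the coding sequence in its longest protein-coding transcript (GENCODE release 29) is printed with its flanks as cDNA, and capitals mark the motif.
MRAS: tggcccaaGGACTtggtacag
RASGRP2: tggatcaaGGACTcattcctg
RASGRP3: ccatgtttGGACTatgggaca
RRAS: agctctcgGGACTagctgcct
HRAS: ggtgagggGGACTcccagggc
NRAS: tgatgatgGGACTcagggttg
RRAS2: gtatatgaGGACTggcgaagg
RASGRP1: gtagtagtGGACTgggcttct
RASGRP4: tctcaggaGGACTttgagcga
In MRAS, RASGRP2, RASGRP3, RRAS and HRAS this site lies in the 3′ UTR, at 105, 22, 149, 37 and 152 bases after the end of the coding sequence. In the other 4 genes the nearest site lies inside the coding sequence. MRAS holds 4 GGACT in all, of which 1 is in the 5′ UTR and 3 are in the 3′ UTR. RASGRP2 holds 2, RASGRP3 holds 5, and RRAS holds 2. Per kilobase of transcript the density was 0.881 in MRAS, 0.670 in RASGRP2, 1.04 in RASGRP3 and 1.92 in RRAS, and ran from 0.597 in RASGRP1 to 1.92 in RRAS over the 9 genes. The median over 16662 tested genes with a transcript was 0.909, with quartiles of 0.493 and 1.40. Of these genes, 86.4% hold at least 1 GGACT, so its presence does not set the 9 genes apart. The letters say nothing of whether a site was methylated, since m6A was not measured in these libraries.

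The promoters of MRAS and RASGRP2 are shown because the counts of both genes moved the same way in each knockdown. RefSeq windows (GRCh38.p14) from 250 bases before to 50 bases after each start were found for 8 of the 9 genes. MRAS has 3 such windows and RASGRP2 has 1. Each was searched on both strands for the letters GATAA, known from GATA factors, GGGCGG, known from SP1, CACGTG, the E-box, TGACTCA, known from AP-1, and CCGGAAG, known from ETS factors, and capitals mark a match. The middle window of MRAS, the one with the most matches, is chr3:138348600-138348899 on the plus strand, and the window of RASGRP2 is chr11:64745299-64745598 on the minus strand.
MRAS: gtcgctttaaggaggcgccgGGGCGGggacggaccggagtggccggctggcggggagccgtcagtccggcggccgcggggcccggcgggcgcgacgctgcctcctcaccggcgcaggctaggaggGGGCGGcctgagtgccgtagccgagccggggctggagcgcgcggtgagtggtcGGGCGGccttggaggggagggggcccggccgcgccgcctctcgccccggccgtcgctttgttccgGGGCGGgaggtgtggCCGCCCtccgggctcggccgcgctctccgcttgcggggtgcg
RASGRP2: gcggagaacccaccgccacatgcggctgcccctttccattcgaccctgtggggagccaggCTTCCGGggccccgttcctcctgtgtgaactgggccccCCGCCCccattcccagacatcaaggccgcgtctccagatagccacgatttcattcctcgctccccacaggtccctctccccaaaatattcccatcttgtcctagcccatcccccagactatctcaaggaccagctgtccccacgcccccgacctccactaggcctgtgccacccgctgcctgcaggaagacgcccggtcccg
The MRAS window held 5 matches to the SP1 letters, and its other windows held 1 and 2, while none held another of the 5 motifs. The window with 1 match overlaps the printed one, and that match is the same site as the first of the 5. The RASGRP2 window held 1 match to the SP1 and 1 to the ETS letters. Of 35116 windows of this length, 45.0% hold the SP1 letters and 10.3% the ETS letters. The GATA letters are in 22.7% of the windows and in none of MRAS or RASGRP2, the E-box is in 7.26% and the AP-1 letters are in 4.95%. A match is a run of letters and not a bound site.

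Total counts were 19292574 to 20115304 per library, and 17686 genes passed the filter on low counts, all 9 described here among them. TMM scales each library so that most genes are taken as unchanged, so a change is measured against the rest of the library. In bulk RNA, fewer cells that express a gene and less RNA per cell cannot be told apart. METTL3 had 1788 and 1728 reads in the controls and 1031 and 938 after its knockdown (log2 fold change −0.87, adjusted p = 3.44e-07), and METTL14 had 656 and 655 reads in the controls and 375 and 404 after its own (log2 fold change −0.76, adjusted p = 1.40e-05), so neither mRNA was abolished. Here and throughout, an adjusted p comes from edgeR's quasi-likelihood test, adjusted over all genes tested by the Benjamini-Hochberg method, with a threshold of 0.05. The libraries of a group differed by more than sampling noise, most in shCTR, where the mean chi-square per gene was 5.34 against 1 for sampling noise alone. All 9 erythroid markers checked had more than 3 reads in every library. By contrast, 1 of 6 T cell, 2 of 6 B cell, 2 of 6 monocyte, 2 of 6 mast cell, 1 of 6 fibroblast and 3 of 10 megakaryocyte and platelet markers did.

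MRAS was higher in shMETTL3 and lower in shMETTL14 cells than in shCTR cells. It encodes the muscle RAS protein, which forms a complex with SHOC2 and PP1C that acts on RAF kinases (ENSG00000158186, chr3:138347648-138405534, plus strand, GRCh38). Reads of MRAS numbered 502 and 490 with the control hairpin, 650 and 656 after METTL3 knockdown, and 286 and 274 after METTL14 knockdown. Scaled to CPM (reads scaled to library size), this was 25.5 ± 0.135 in shCTR, 32.9 ± 0.280 in shMETTL3 and 14.3 ± 0.409 in shMETTL14 (SD, n = 2 each). Both shMETTL3 libraries were above, and both shMETTL14 libraries below, the 2 controls. The level was 1.29-fold that of shCTR in shMETTL3 cells (log2 fold change 0.37, standard error 0.0859) and 0.560-fold in shMETTL14 cells (log2 fold change −0.84, standard error 0.0939). Between the knockdowns MRAS differed 2.30-fold.

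RASGRP2 showed the same pattern with smaller steps. It encodes CalDAG-GEFI, the exchange factor for RAP1 best known from platelets (ENSG00000068831, chr11:64726911-64745456, minus strand). RASGRP2 had 826 and 873 reads in shCTR, 1078 and 1133 in shMETTL3, and 695 and 734 in shMETTL14 libraries. Its level was 43.7 ± 2.69 CPM in the controls, 55.7 ± 1.12 after METTL3 and 36.4 ± 1.46 after METTL14 knockdown (SD, n = 2 each). The 3 groups did not overlap. The level was 1.27-fold that of shCTR in shMETTL3 cells (log2 fold change 0.35, standard error 0.0744), and 0.833-fold in shMETTL14 cells (log2 fold change −0.26, standard error 0.0771). Between the knockdowns it differed 1.53-fold. With a smooth trend on GC content and transcript length taken out of every library, the log2 fold change in shMETTL3 cells fell to 0.18, while in MRAS it was 0.34. The summed level of the megakaryocyte and platelet markers was also higher in shMETTL3 cells. It was 18.96 to 19.33 CPM in shCTR, 27.7 to 30.2 in shMETTL3 and 17.2 to 18.0 in shMETTL14 libraries. Of the 10 markers 4 could be tested, and of these 2 rose in shMETTL3 cells and 0 passed in shMETTL14 cells. ITGB3, counted among the 2, had 4 and 4, 14 and 14, and 1 and 1 reads in the 3 groups. It passed the filter on low counts only through the shMETTL3 libraries, so its reads are given as a description. ITGA2B, the platelet integrin subunit, had 227 and 254, 441 and 405, and 220 and 211 reads in the 3 groups. The defining markers GP1BB, GP9, PF4 and TREML1 were at 0 in every library. Their part in the RASGRP2 values was not tested.

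**Figure D1:**
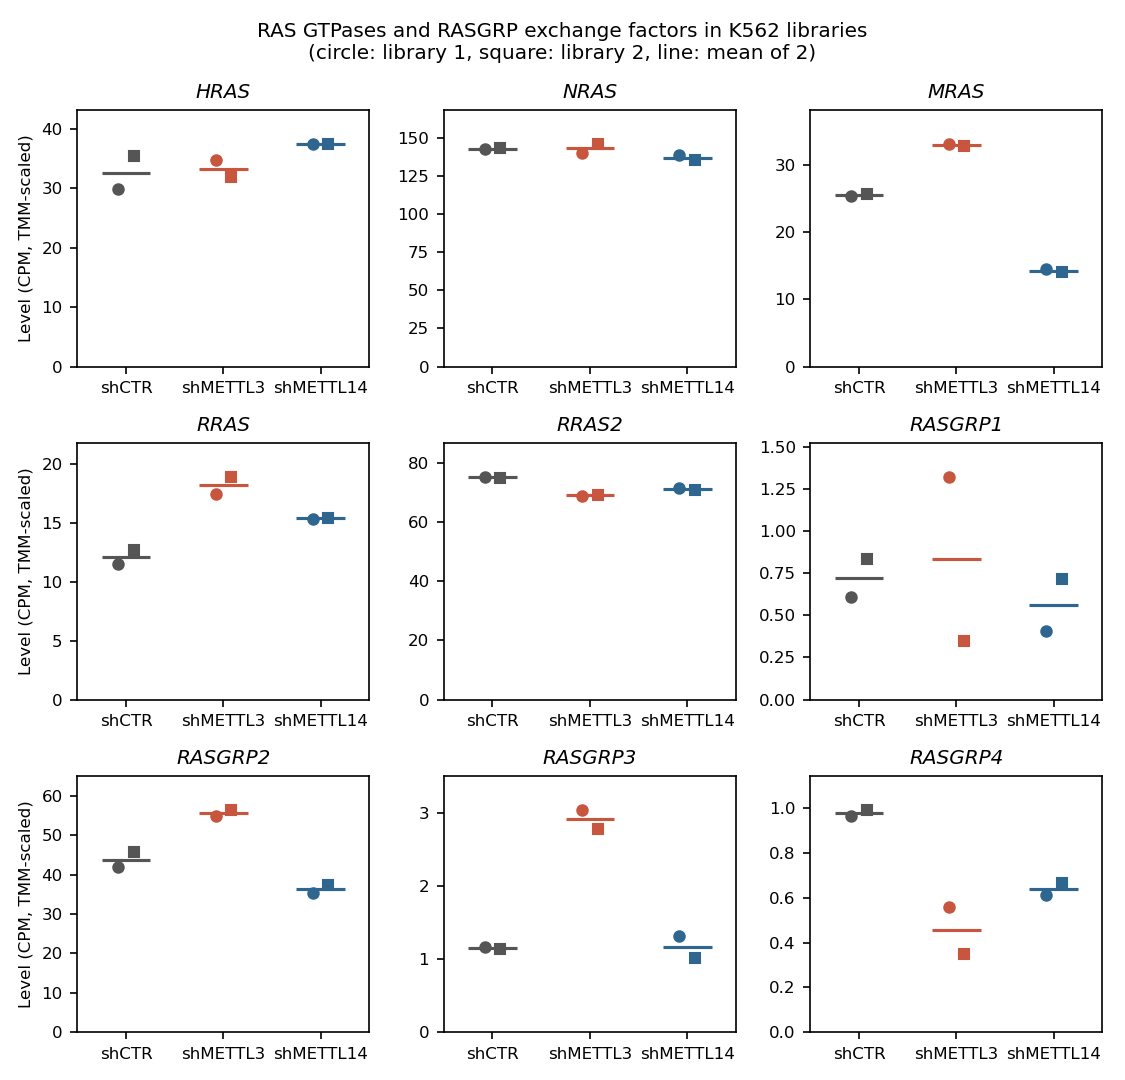
Level of each gene in every library, in TMM-scaled CPM from 0, for shCTR, shMETTL3 and shMETTL14 cells, with a line at the mean of 2 libraries. MRAS and RASGRP2 lie above shCTR in shMETTL3 and below it in shMETTL14 cells, RASGRP3 is high in both shMETTL3 libraries alone, and the 2 shMETTL3 libraries of RASGRP1 lie apart, at 1.32 and 0.349 CPM.

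Of the 7 genes tested, 2 rose, 0 fell and 5 did not pass the test in shMETTL3 cells, beside 16.5% of all tested genes called (8.73% higher and 7.73% lower). The genes that rose were RRAS and RASGRP3. In shMETTL14 cells 0 of the 7 passed, beside 6.69% of all genes (3.43% higher and 3.26% lower). Between the knockdowns 1 of the 7 differed, RASGRP3, beside 12.1% of all genes. The family was chosen with these values known, so nothing is read from these counts.

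RRAS encodes R-RAS, a GTPase that acts on integrins and cell adhesion (ENSG00000126458, chr19:49635292-49640201, minus strand). It had 228 and 244 reads in shCTR, 343 and 380 in shMETTL3 and 301 and 303 in shMETTL14 libraries. The levels were 12.1 ± 0.854, 18.2 ± 1.04 and 15.4 ± 0.0971 CPM (SD, n = 2 each), and both knockdowns lay above both controls. RRAS rose in shMETTL3 cells (log2 fold change 0.58, standard error 0.110, 95% confidence interval 0.36 to 0.81, adjusted p = 0.00109 by edgeR). In shMETTL14 cells its log2 fold change was 0.34 (0.11 to 0.58) and missed the threshold (adjusted p = 0.0748 by edgeR). With 1 library left out it ran from 0.27 to 0.41, the highest without the second shCTR library, where it passed the threshold. The difference between the knockdowns, 0.24 on the log2 scale, was not past the threshold either (0.02 to 0.47, adjusted p = 0.160 by edgeR), so a larger rise in shMETTL3 cells was not shown.

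RASGRP3 encodes a diacylglycerol-dependent exchange factor for RAS and RAP1, known from B cells (ENSG00000152689, chr2:33436324-33564750, plus strand). It had few reads, with 23 and 22 in shCTR, 60 and 56 in shMETTL3 and 26 and 20 in shMETTL14 libraries. The shMETTL3 libraries stood above the other 4, which lay within 6 reads of each other. Its level was 1.16 ± 0.0104 CPM in the controls, 2.92 ± 0.186 after METTL3 and 1.17 ± 0.214 after METTL14 knockdown (SD, n = 2 each). RASGRP3 rose 2.52-fold in shMETTL3 cells (log2 fold change 1.33, standard error 0.271, 95% confidence interval 0.77 to 1.90, adjusted p = 0.00213 by edgeR). In shMETTL14 cells the log2 fold change was 0.02, with an interval of −0.64 to 0.68 that leaves room for a change of either sign (adjusted p = 0.986 by edgeR). The knockdowns differed 2.49-fold (log2 difference 1.31, standard error 0.270, adjusted p = 0.00253 by edgeR). Without the second shMETTL14 library that difference was 1.14 and narrowly missed the threshold (adjusted p = 0.0515 by edgeR). An antisense gene, AC020594.1, overlaps RASGRP3 over 8501 bases and had 0 and 1, 4 and 7, and 1 and 0 reads in the 3 groups. The strand setting of the counting is not given in the sources used here, so reads of the 2 genes cannot be told apart. The 6 B cell markers summed to 3.24 to 3.39 CPM in shCTR, 5.04 to 5.18 in shMETTL3 and 2.60 to 3.52 in shMETTL14 libraries, and of 2 that could be tested 0 passed in either knockdown. Their part in the RASGRP3 values was not tested.

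**Figure D2:**
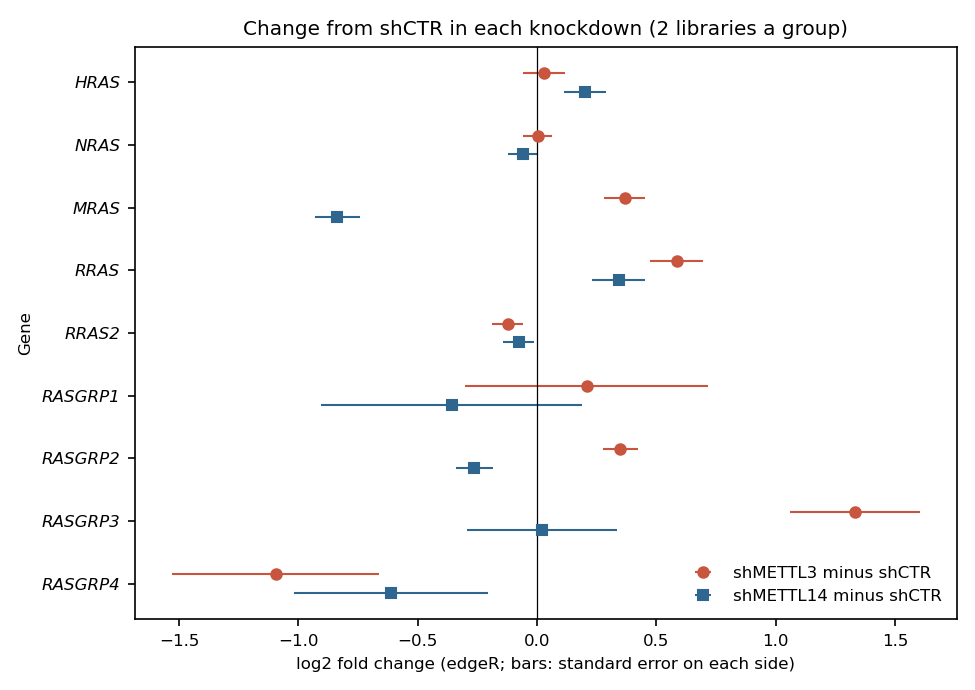
log2 fold change from shCTR of the 9 genes in shMETTL3 (circles) and shMETTL14 cells (squares), with bars of 1 standard error on each side. MRAS and RASGRP2, chosen for this pattern, lie on opposite sides of 0, at 0.37 and −0.84 and at 0.35 and −0.26, while RASGRP1 and RASGRP4 have the widest bars.

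HRAS, NRAS and RRAS2 were well covered and did not pass the test in either knockdown. NRAS (ENSG00000213281, chr1:114704469-114716894, minus strand), a classical RAS often mutated in myeloid leukemia, had between 2650 and 2933 reads in every library. Its log2 fold change was 0.00276 in shMETTL3 cells (95% confidence interval −0.13 to 0.13, adjusted p = 0.981 by edgeR) and −0.06 in shMETTL14 cells (adjusted p = 0.632 by edgeR). Between the knockdowns it differed by 0.06 on the log2 scale (−0.06 to 0.19, adjusted p = 0.576 by edgeR). RRAS2 (ENSG00000133818, chr11:14277926-14364506, minus strand), also called TC21, had 1488 and 1431 reads in shCTR, 1352 and 1385 in shMETTL3 and 1405 and 1387 in shMETTL14 libraries. All 4 knockdown libraries lay below both controls, and the log2 fold changes of −0.12 (−0.26 to 0.01, adjusted p = 0.214 by edgeR) and −0.08 (−0.21 to 0.06, adjusted p = 0.547 by edgeR) did not pass. With the GC and length trend removed, the first of these was 0.027, so its sign is not settled.

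HRAS (ENSG00000174775, chr11:532242-537287, minus strand) had 591 and 678 reads in shCTR, 682 and 640 in shMETTL3 and 737 and 735 in shMETTL14 libraries. The 2 controls differed by more than the means of shCTR and shMETTL3, at 29.9 and 35.4 CPM, and both shMETTL14 libraries lay above the other 4, at 37.5 CPM. The log2 fold change was 0.03 in shMETTL3 cells (−0.16 to 0.22, adjusted p = 0.868 by edgeR) and 0.20 in shMETTL14 cells (0.01 to 0.39, adjusted p = 0.203 by edgeR). With 1 library left out the latter ran from 0.08 to 0.33, the highest without the second shCTR library, where it passed the threshold. The first was −0.093 with the GC and length trend removed and −0.092 without the first shCTR library.

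RASGRP4 and RASGRP1 were close to the limit of these libraries. RASGRP4, an exchange factor of mast cells and other myeloid cells (ENSG00000171777, chr19:38409051-38426305, minus strand), had 19 and 19 reads in shCTR, 11 and 7 in shMETTL3 and 12 and 13 in shMETTL14 libraries. All 4 knockdown libraries lay below the controls. The log2 fold change was −1.10 in shMETTL3 cells (−2.001 to −0.191, unadjusted p = 0.0201, adjusted p = 0.0915 by edgeR) and −0.61 in shMETTL14 cells (−1.46 to 0.24, adjusted p = 0.426 by edgeR), so neither passed. The mast cell markers summed to 13.8 to 16.3 CPM in shCTR, 7.18 to 8.22 in shMETTL3 and 9.87 to 10.8 in shMETTL14 libraries. Of the 6 markers 2 could be tested, KIT and MS4A2, and both fell in shMETTL3 cells and 1 in shMETTL14 cells. TPSAB1, which encodes the tryptase that defines mast cells, was at 0 in every library. The 6 monocyte markers summed to 43.1 to 44.4 CPM in shCTR, 16.2 to 17.6 in shMETTL3 and 60.9 to 66.6 in shMETTL14 libraries. LYZ made up most of each sum, with means of 42.9, 16.0 and 62.4 CPM in the 3 groups. Of the 2 markers that could be tested, LYZ fell in shMETTL3 and rose in shMETTL14 cells. The other, ITGAM, had 8 to 17 reads per library and passed in neither knockdown. CD14 had at most 3 reads in any library. The part of both lists in the RASGRP4 values was not tested. RASGRP4 shares 38 bases with FAM98C on the opposite strand, which had 523 to 676 reads per library. RASGRP1, the exchange factor of T cell receptor signaling (ENSG00000172575, chr15:38488103-38565575, minus strand), had 12 and 16 reads in shCTR, 26 and 7 in shMETTL3 and 8 and 14 in shMETTL14 libraries. The 2 shMETTL3 libraries held the highest and the lowest count, and the log2 fold change was 0.21 (−0.86 to 1.27, adjusted p = 0.828 by edgeR). Without the first of them it was −1.03, so no direction can be given. In shMETTL14 cells the log2 fold change was −0.36 (−1.504 to 0.788, adjusted p = 0.770 by edgeR). RASGRP1 overlaps 2 antisense genes, of which ENSG00000259326 had 1 to 12 reads per library and ENSG00000259598 had 0. Of the 6 T cell markers only CD3D had more than 3 reads in every library.

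Per length of transcript, RASGRP2 was the only 1 of the 4 exchange factors whose level lay among those of the 5 GTPases. In RPKM, that is reads per kilobase of the longest annotated transcript, scaled to CPM by TMM, the shCTR levels were 36.9 for RRAS2, 32.1 for NRAS, 26.5 for HRAS, 14.6 for RASGRP2, 11.6 for RRAS and 5.62 for MRAS. RASGRP3, RASGRP4 and RASGRP1 followed at 0.241, 0.240 and 0.144. Of these neighbours, RASGRP3 and RASGRP4 did not differ beyond their spread. In shMETTL3 cells the first 6 kept this order, with RASGRP2 at 18.7 and RRAS at 17.4 RPKM, which did not differ beyond their spread. In shMETTL14 cells RRAS, at 14.7 RPKM, was above RASGRP2, at 12.2, and NRAS and HRAS, at 30.8 and 30.4, did not differ beyond their spread. RASGRP1 and RASGRP4, neighbours at the low end in both knockdowns, did not differ beyond their spread there either. The order rests on the length of 1 transcript per gene, which may not be the one these cells use; for RASGRP4 it is a transcript with a retained intron.

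**Figure D3:**
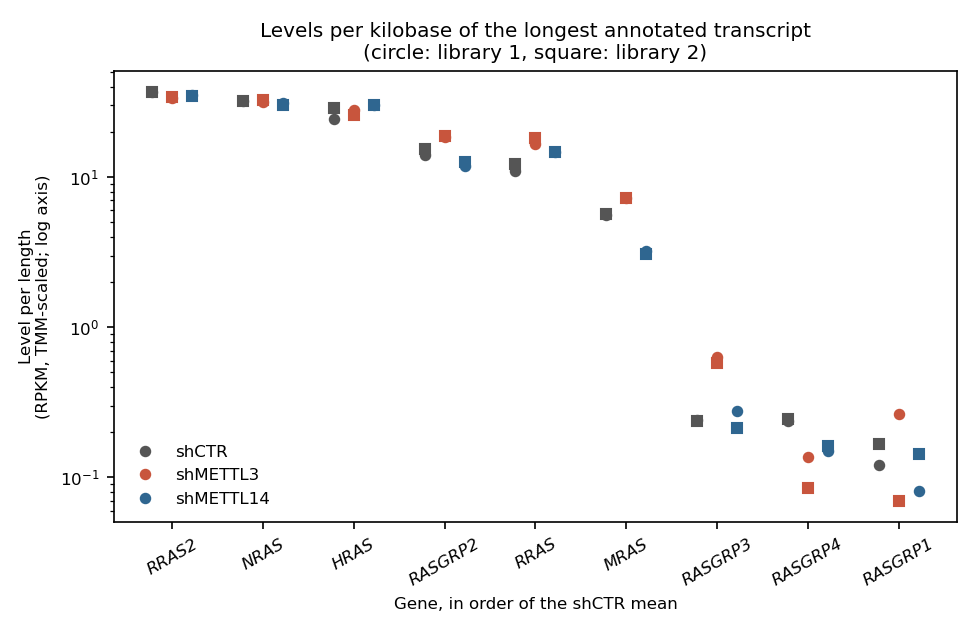
Level of each gene in every library, in TMM-scaled RPKM on a log axis, with the genes in order of their shCTR mean. The 6 genes on the left lie between 3.08 and 37.0 RPKM, and RASGRP3, RASGRP4 and RASGRP1 lie below 1 RPKM in every library.

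RASGRP2 made up most of the RASGRP reads in each group, 93.9% in the controls, 93.0% after METTL3 and 93.9% after METTL14 knockdown. The share of RASGRP3 was 2.49%, 4.88% and 3.02%, and that of RASGRP4 was 2.10%, 0.757% and 1.64%. Summed over the 4 exchange factors, the level was 44.5 and 48.6 CPM in shCTR, 59.8 and 60.0 in shMETTL3 and 37.7 and 39.8 in shMETTL14 libraries. These sums follow RASGRP2, which chose the family, and carry no test. Summed over the 5 GTPases the level was 284.5 and 292.0 CPM in shCTR, 294.3 and 298.7 in shMETTL3 and 277.9 and 272.8 in shMETTL14 libraries, and these sums include MRAS.

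The genes around RAS were described from 9 lists of exchange factors of other families, GTPase-activating proteins, receptor adaptors, effectors, maturation enzymes, enzymes that make diacylglycerol, diacylglycerol kinases, protein kinase C and related small GTPases. Of their 120 genes in the table, 93 passed the filter. In shMETTL3 cells 14 rose, 5 fell and 74 did not pass, which is 20.4% of those tested beside 16.5% over all genes. In shMETTL14 cells 1 rose and 2 fell, 3.23% beside 6.69%. The median log2 fold changes of the 93 were 0.02 and −0.02, beside 0.00299 and −1.40e-04 over all genes. Leaving out either library of a knockdown lowered its number of calls in the lists, and also its number over all genes. With library size alone as scaling, 20 rose and 1 fell in shMETTL3 cells, beside 2158 higher and 858 lower over all genes. PLCG2, PLCD3 and SHC2 stayed past the threshold in shMETTL3 cells in all 13 other settings.

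Diacylglycerol, the lipid that recruits RASGRP1, RASGRP3 and RASGRP4, is made by phospholipase C. Of 8 tested genes of this list 2 rose and 0 fell in shMETTL3 cells, with a median of 0.03. PLCG2, the phospholipase C downstream of the B cell receptor and of platelet receptors, had 289 and 256 reads in shCTR, 453 and 419 in shMETTL3 and 228 and 230 in shMETTL14 libraries. It rose in shMETTL3 cells (log2 fold change 0.65, adjusted p = 3.18e-04 by edgeR), while in shMETTL14 cells it was at −0.26 (adjusted p = 0.189 by edgeR). PLCD3, a phospholipase C of the delta type, had 265 and 263, 394 and 389, and 360 and 360 reads, and rose in both knockdowns (log2 fold changes 0.54 and 0.43, adjusted p = 0.00118 and 0.0133 by edgeR). Its call in shMETTL14 cells was lost in DESeq2 and without either shMETTL14 library. In shMETTL14 cells PLCD3 was 1 gene of 8, and the list's median was −0.20. Of the 7 diacylglycerol kinases tested, which remove the lipid, 0 passed in either knockdown. Among 5 protein kinase C genes, which also bind diacylglycerol, PRKCE rose from 43 and 43 reads to 84 and 80 in shMETTL3 cells (log2 fold change 0.90, adjusted p = 0.00755 by edgeR). In shMETTL14 libraries it had 73 and 58 reads (adjusted p = 0.127 by edgeR). The call in shMETTL3 cells was lost without the first shMETTL3 library.

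The adaptors that couple receptors to RAS had the most calls, with 4 of 16 tested genes higher and 3 lower in shMETTL3 cells. This was 43.8% of the list beside 16.5% over all genes, and its median was 0.06. SHC2, a docking protein that binds GRB2, had 83 and 105 reads in shCTR, 193 and 171 in shMETTL3 and 100 and 108 in shMETTL14 libraries (log2 fold change 0.92 in shMETTL3 cells, adjusted p = 8.08e-04 by edgeR). LAT2, an adaptor of B cells and mast cells, had 10 and 12, 29 and 23, and 11 and 20 reads, and passed narrowly in shMETTL3 cells (log2 fold change 1.20, adjusted p = 0.0478 by edgeR). Its call was lost when any 1 library was left out. GAB3, a scaffold of the GAB family, fell in both knockdowns, by 0.28 on the log2 scale in each (adjusted p = 0.0120 and 0.0247 by edgeR). The first call was lost without the first shMETTL3 library and the second in 5 of 13 other settings. CBLB, a ubiquitin ligase that dampens receptor signaling, fell by 0.28 in shMETTL3 cells (adjusted p = 0.0369 by edgeR), a call lost in 10 of 13 other settings. In shMETTL14 cells 1 of the 16 fell, GAB3.

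SOS1, the exchange factor that acts below receptor tyrosine kinases, fell by 0.25 in shMETTL3 cells (adjusted p = 0.0196 by edgeR), and its homolog SOS2 was at −0.02. The SOS1 call was lost in 4 of 13 other settings. These were library size alone, the fits without the first or the second shMETTL3 library, and the fit without the first shCTR library, where the value was −0.15. Of 7 GTPase-activating proteins tested, 0 passed in shMETTL14 cells. Of 17 effectors tested, 1 rose in shMETTL3 cells, RASSF5 (log2 fold change 0.26, adjusted p = 0.0320 by edgeR, lost in 9 of 13 other settings). In shMETTL14 cells 1 fell, PIK3CB, the catalytic subunit p110 beta of PI3 kinase (log2 fold change −0.28, adjusted p = 0.00920 by edgeR). The PIK3CB call was lost without either shMETTL14 library, and with 1 library left out its value ran from −0.31 to −0.25. Of 13 genes for the maturation and turnover of RAS proteins 2 rose in shMETTL3 cells. PDE6D, which carries farnesylated RAS through the cytosol, rose by 0.51 on the log2 scale (adjusted p = 0.0161 by edgeR), and ICMT, which methylates the processed C terminus, by 0.24 (adjusted p = 0.0292 by edgeR). The PDE6D call was lost in DESeq2 and without the first shCTR library (0.34) or either shMETTL3 library. That of ICMT was lost in 7 of 13 other settings, and without the second shMETTL3 library its value was 0.14.

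Among 18 related small GTPases tested, 3 rose and 1 fell in shMETTL3 cells and 0 passed in shMETTL14 cells. DIRAS3, an imprinted GTPase that opposes RAS signaling, had 8 and 2 reads in shCTR, 29 and 24 in shMETTL3 and 16 and 7 in shMETTL14 libraries. It is 1 of the 3 counted as higher, but it passed the filter on low counts only through the shMETTL3 libraries, so its reads are given as a description. DIRAS1 rose by 0.40 on the log2 scale (adjusted p = 0.00159 by edgeR), and RALA, a GTPase activated through RALGDS, fell by 0.24 (adjusted p = 0.0149 by edgeR). The DIRAS1 call was lost without the second shMETTL3 library, and that of RALA without either shMETTL3 library and with library size alone. Of the 93 genes, GAB3 and PLCD3 were called in both knockdowns, which share their shCTR libraries, and both moved the same way in each. None was called with opposite signs.

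**Figure D4:**
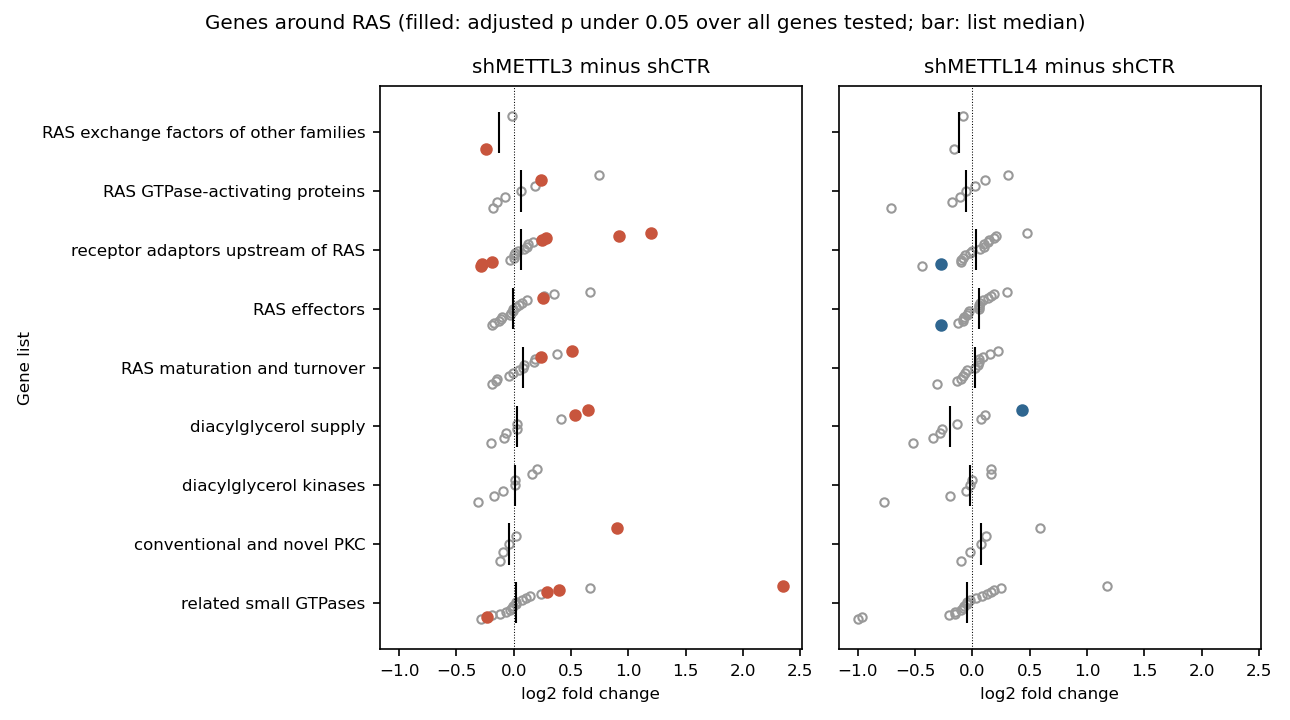
log2 fold change from shCTR of the 93 tested genes of 9 lists around RAS, in shMETTL3 and shMETTL14 cells, with filled points for an adjusted p under 0.05 (edgeR, over all genes tested) and a bar at each list's median. There are 19 filled points in shMETTL3 and 3 in shMETTL14 cells, and the list medians lie between −0.20 and 0.08.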

How the data were processed

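RNA-seq of K562 cells was analysed in 6 libraries, grouped by the submitters' labels. The values the authors deposited are raw counts, reads assigned to each gene with no normalization, and the submitters' processing notes name HTSeq 0.6.1 and the build hg38. The aligner, the strand setting and the annotation release are not given in the sources used here. Identifiers were given symbols from a table of gene names or GENCODE release 29. In R 4.3.3, edgeR 4.0.16 was run on 17686 genes kept by filterByExpr (minimum count 10), with TMM scaling and the quasi-likelihood test in one fit over all groups, Benjamini-Hochberg adjustment and a threshold of 0.05. The steps were tested on simulated data. PCR copies were not told apart. Standard errors and confidence intervals come from the edgeR fit, which uses the spread between these libraries. The genes, the lists and the alternatives were chosen with earlier results of these data known. Genes named outside the family are, per list and knockdown, up to 2 with the largest rise and up to 2 with the largest fall past the threshold, and SOS2, KIT and other markers were named after their values were seen. A gene that meets this rule is not reported here. The alternatives were other scalings, no filter, DESeq2 1.42.0, a fit on the compared groups, the replicate number as a block, removal of the GC and length trend (mgcv 1.9.3) and each library left out in turn.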

Additional observations from a re-analysis of the deposited data

Results flagged for a closer look

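The effects of the knockdowns, both measured against the same shCTR libraries, differed for 8 genes. For MRAS the log2 difference, shMETTL3 minus shMETTL14, was 1.20, and for RASGRP2 it was 0.61. Every shMETTL3 library lay above and every shMETTL14 library below the controls for both genes, which were chosen for this, so the difference was not tested.

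For the other 6 genes edgeR's test of shMETTL3 against shMETTL14, adjusted over all genes, was past the threshold. The log2 difference was 1.31 for RASGRP3, 0.91 for PLCG2, 0.79 for SHC2, 0.60 for PDE6D, 0.55 for DIRAS1 and 0.26 for PIK3CB. Each of the 6 was higher in shMETTL3 than in shMETTL14 cells.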

How the results depend on the processing

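With 2 libraries per group, low counts limited RASGRP1, RASGRP3 and RASGRP4 most. The rises of RRAS and RASGRP3 in shMETTL3 cells stayed past the threshold in all 13 other settings. Values close to 0, or with few reads, changed sign: HRAS in shMETTL3 cells (−0.093 with the GC and length trend removed, and −0.092 to 0.15 over the fits that leave out 1 library), NRAS in shMETTL3 cells (−3.83e-04 with DESeq2's size factors, −0.00106 without the filter, −3.74e-04 in DESeq2, and −0.025 to 0.033 with 1 library left out), RRAS2 (0.027 in shMETTL3 cells and 0.035 between the knockdowns with the trend removed), RASGRP1 (with 1 library left out, −1.03 to 0.87 in shMETTL3 cells and −0.67 to 1.23 between the knockdowns) and RASGRP3 in shMETTL14 cells (−0.18 to 0.19 with 1 library left out). With the trend removed, HRAS differed between the knockdowns (−0.23, adjusted p = 0.0345 by edgeR). The causes were not tested.

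DESeq2 called 1881 genes in shMETTL3 cells, 763 in shMETTL14 cells and 1327 between the knockdowns, and 766 were called in shMETTL14 cells without the filter. In the lists around RAS DESeq2 called 12 and 1, and 6 were called in shMETTL14 cells with the trend removed. With 1 library left out, the calls ranged from 1102 to 3569, 341 to 1913 and 942 to 2953, and in the lists from 6 to 26 and 0 to 10. Library size alone gave 2158 higher and 858 lower in shMETTL3 cells, against 1544 and 1368 with TMM, 743 and 443 in shMETTL14 cells, against 607 and 577, and 1399 and 754 between the knockdowns, moving the median by at most 0.06. Deviations from the group mean correlated at 0.06, 0.00519 and −0.02 between libraries with the same replicate number. Such correlations over all tested genes cannot show that the libraries were unpaired. The replicate block gave 3264, 1459 and 2478 calls, against 2912, 1184 and 2148 without it. In the lists it gave 20 and 4, against 19 and 3, and it changed no call among the 7 tested genes of the family.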

Other observations

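By the root mean square difference of centred log2 CPM over the 6 libraries, among 11615 protein-coding genes, the profiles most like MRAS were those of ZNF385C (0.0665), GATA6 (0.0721) and NPDC1 (0.0868). Those most like RASGRP2 were VEGFA (0.0403), NACC2 (0.0417) and ABLIM1 (0.0460). VEGFA had 293.4 and 309.7 CPM in shCTR, 362.8 and 367.7 in shMETTL3 and 242.9 and 243.9 in shMETTL14 libraries, the order of groups seen in RASGRP2. Those most like RASGRP3 were CPLX1 (0.0773), KCNE3 (0.0991) and IFIT3 (0.103). IFIT3, an interferon-stimulated gene, had 2.88 and 2.98, 7.38 and 7.43, and 3.92 and 3.01 CPM in the 3 groups. These genes were picked for their likeness, over 6 libraries that share groups, and no test applies.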
